A study of Mus musculus with 16 samples.

Results

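The 6 genes described here encode the Fos proteins Fos, Fosb and Fosl2 and the Jun proteins Jun, Junb and Jund. They were chosen by symbol from the 55414 genes of the deposited count tables, and all 6 passed the filter on low counts. Fos proteins pair with Jun proteins through a leucine zipper to form the transcription factor AP-1, while Jun proteins can also pair with one another. Growth factors, cytokines and stress switch several of these genes on within minutes as immediate-early genes, and most of their mRNAs are short-lived. AP-1 acts in the proliferation and differentiation of blood cells, and in the mouse the loss of Junb in haematopoietic stem cells leads to an overgrowth of myeloid cells.

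The study measured how long mRNAs last in long-term haematopoietic stem cells (LT-HSCs) of mouse bone marrow, per the labels, by blocking transcription with actinomycin D and sequencing RNA at 0, 1, 3 and 5 h. One genotype is labelled as deficient in Nat10, the enzyme that acetylates cytidine in RNA to ac4C, and the other is wild type (WT). Lineage-depleted marrow cells of both genotypes were cultured with stem cell factor, thrombopoietin and heparin and received 5 µM actinomycin D, and stem cells were sorted at each time. Each of the 8 combinations of genotype and time has 2 libraries, 16 in all. Strain, age, the allele behind the Nat10 deficiency, any Cre driver and the number of animals are not given in the sources used here. Sample titles name the myeloid cell line 32D where the cell type field names LT-HSCs, and no source used here resolves that conflict.

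Several facts of the whole series bear on every value below. Total counts ranged from 9142413 to 17274128 per library. Nat10 itself stood at 110 and 113 CPM (counts scaled to a fixed gene total) in libraries with that label and at 103 and 103 CPM in WT at 0 h. At 5 h it stood at 147 and 161 CPM in the libraries labelled Nat10-deficient and at 16.7 and 15.4 CPM in WT. The label is therefore not borne out by the whole-gene count, which also cannot show a deletion of a few exons, so the wording "labelled Nat10-deficient" is kept. The labels speak of 2 biological replicates, yet the headers of both files name a single alignment in all 8 groups, and a chi-square test of their counts gave 1.43 to 1.81 per degree of freedom, where libraries of neighbouring times gave 47.9 to 256. The p-values below therefore measure the spread between such files, which may be technical. Spike-in RNA (ERCC), added in equal amounts per the labels, took 0.0221% to 0.129% of counts in libraries labelled Nat10-deficient and 1.79% to 2.92% in WT. Immunoglobulin genes took 3.89% to 24.6% of gene counts in libraries labelled Nat10-deficient and 3.61% to 59.7% in WT. All 10 stem cell markers had counts in every library except Hoxb5 in 1 library labelled Nat10-deficient at 5 h. All 8 neutrophil and monocyte markers and all 8 erythroid markers had counts in every library, so such detection is not particular to stem cell markers.

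The members differ in their sequence, and a pair of features is shown. The first is the AU-rich pentamer ATTTA in the 3′ untranslated region (UTR), where proteins such as Zfp36 bind and speed mRNA decay. The longest annotated 3′ UTR of a principal transcript of each gene (GENCODE M21, build GRCm38) was searched on the mRNA strand, and the 30 bases with the most pentamers are printed in DNA letters with ATTTA in capitals.
Fos (chr12:85477100-85477129, + strand): ttgtgttttcaATTTATTTAttaagatgga
Fosb (chr7:19303326-19303355, - strand): cccacccccagctATTTAtccctttcctgg
Fosl2 (chr5:32156864-32156893, + strand): aattgacATTTAttttattATTTAttttaa
Jun (chr4:95049207-95049236, - strand): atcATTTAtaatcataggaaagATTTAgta
Junb (chr8:84977127-84977156, - strand): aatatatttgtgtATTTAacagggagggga
Jund (chr8:70700358-70700387, + strand): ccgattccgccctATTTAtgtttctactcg

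Fos carried 4 pentamers in 815 bases, or 4.91 per kilobase, more than 91.7% of the 20500 genes with a 3′ UTR of at least 50 bases. Junb followed with 2 in 485 bases (4.12 per kilobase) and Jun with 4 in 1233 bases (3.24 per kilobase). Jund had 1 in 533 bases (1.88 per kilobase), Fosl2 had 8 in 4653 bases (1.72 per kilobase) and Fosb had 1 in 2145 bases (0.466 per kilobase). The median of all genes was 1.24 per kilobase, so Fosb alone of the 6 lay below it. The longer element TTATTTATT, which overlaps the pentamer, was found once in Fos and once in Fosl2 and in 7.35% of all genes.

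The second kind of sequence is the promoter, shown for Fos and Jun because the ratio of their counts is followed through the times. Printed are the 120 bases before the RefSeq start (GRCm38.p6), with the searched motifs in capitals.
Fos (chr12:85473770-85473889, + strand): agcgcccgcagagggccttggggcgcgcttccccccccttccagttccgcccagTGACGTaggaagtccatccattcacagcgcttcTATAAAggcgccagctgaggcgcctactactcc
Jun (chr4:95052223-95052342, - strand): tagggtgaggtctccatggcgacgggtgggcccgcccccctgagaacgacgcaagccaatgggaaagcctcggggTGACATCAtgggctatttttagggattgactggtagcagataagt

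In Fos the capitals mark TGACGT, a core of the cAMP response element that Creb1 and its relatives bind, and TATAAA, the TATA box. In Jun they mark TGACATCA, an AP-1-like element bound by Jun with Atf2. Within the 250 bases before the start, TGACGT occurred on either strand in 6.47% of 32851 mouse promoters, TATAAA on the gene's strand in 7.59% and TGACATCA on either strand in 2.93%. The other motifs searched on both strands, TGANTCA and the CArG box bound by Srf, had no match in those 250 bases of either gene. None of these motifs was found in the same 250 bases of Fosb, Fosl2, Junb and Jund. Bases further upstream were not searched, so an element there would be missed. A match describes the letters and is not evidence of binding.

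At 0 h the members covered a wide range of levels. Scaled to exonic length as CPM per kilobase, the order in libraries labelled Nat10-deficient was Junb at 940 ± 30.5, Fos at 617 ± 4.64, Jun at 499 ± 8.65, Fosb at 279 ± 0.285, Fosl2 at 8.24 ± 0.028 and Jund at 4.50 ± 0.023 (SD, n = 2 files). In WT the order was Fos at 2040 ± 13.1, Junb at 1554 ± 38.5, Jun at 493 ± 6.34, Fosb at 239 ± 3.27, Fosl2 at 22.7 ± 0.617 and Jund at 4.32 ± 0.106. Fos and Junb thus changed places, and no neighbours in either order overlapped at 0 h. The value of Jund uses its full exonic length, although fragments in the 52.6% it shares with an antisense gene are not counted. Its place below Fosl2 in libraries labelled Nat10-deficient is therefore not secure. The 6 genes together took 0.696% and 0.711% of gene counts in libraries labelled Nat10-deficient, against 1.16% and 1.17% in WT.

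**Figure D1:**
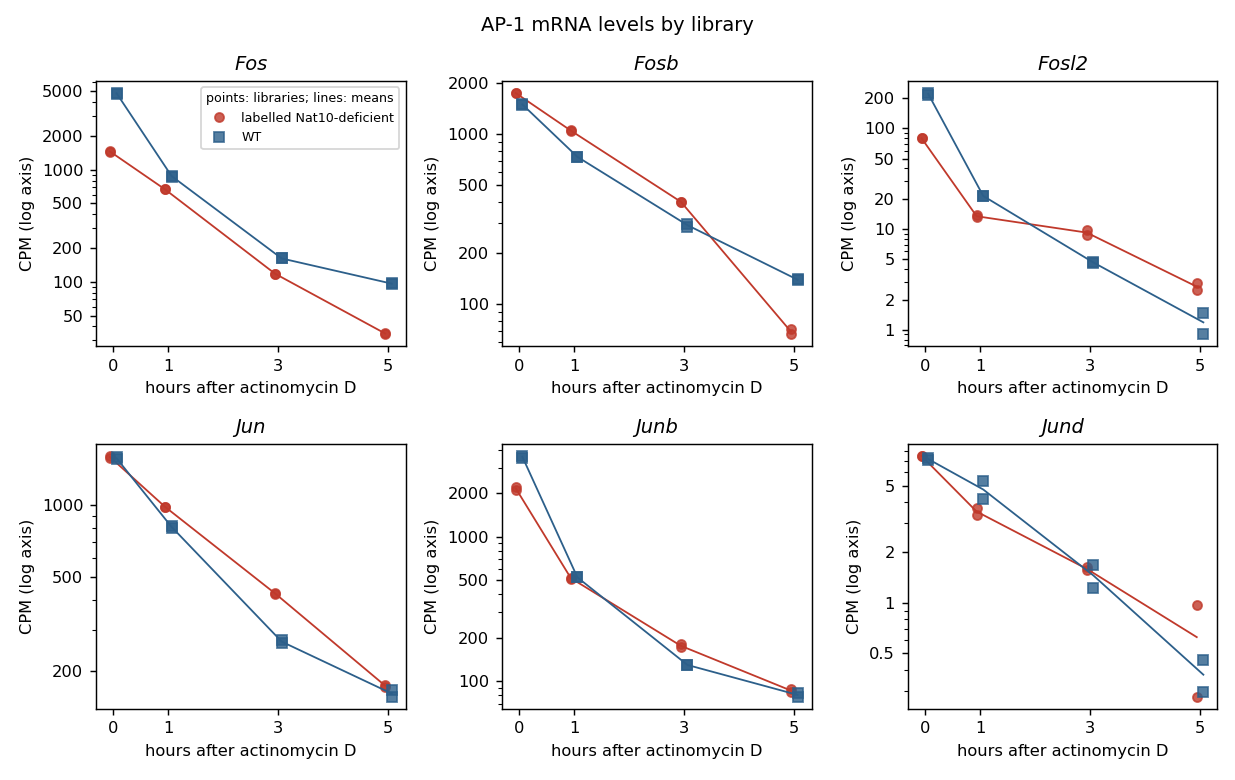
Level of each AP-1 mRNA in CPM (log axis) against hours after actinomycin D, with a point per library and lines through the means of 2 libraries. Fos at 0 h lies at 1444 and 1460 CPM in the libraries labelled Nat10-deficient and at 4821 and 4777 CPM in WT, and all 6 genes end lower at 5 h than at 0 h in both genotypes.

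The comparison of genotypes before decay asked whether the mRNA levels differed at 0 h, relative to the other genes (log2 differences from edgeR's quasi-likelihood test with TMM scaling, libraries labelled Nat10-deficient minus WT). In libraries labelled Nat10-deficient Fos, Fosl2 and Junb were lower on every scale but that of the spike-in, Fosb was higher, Jun was higher except when scaled on long-lived mRNAs, and Jund did not pass the adjusted threshold of 0.05. That makes 5 of 6 members called, where 60.3% of the 25081 genes tested were called, so the number called is unremarkable and the sizes and directions carry the description. Of all genes, 36.0% were called higher and 24.2% lower, with a median of 0.10. In bulk RNA, fewer cells of a type and less RNA per cell cannot be told apart.

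Fos (ENSMUSG00000021250, chromosome 12, 85520664 to 85524047, + strand, GRCm39, 2352 exonic bases), the classic immediate-early partner of Jun, showed the widest gap of the 6. It had 1444 and 1460 CPM in the libraries labelled Nat10-deficient, against 4821 and 4777 CPM in WT. The groups lay far apart, and both libraries labelled Nat10-deficient were low, at 30.3% of the WT mean. The log2 difference was -1.50 ± 0.022 (SE, edgeR adjusted p = 5.5e-155), and 12.4% of all genes had a lower value.

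Fosl2 (ENSMUSG00000029135, chromosome 5, 32293145 to 32315186, + strand, 9680 exonic bases) encodes Fra-2, a Fos relative without the strong activation domain of Fos. Its level was 79.9 and 79.6 CPM in libraries labelled Nat10-deficient, against 216 and 224 CPM in WT. Both libraries labelled Nat10-deficient were low, at 36.3% of the WT mean. The log2 difference was -1.24 ± 0.055 (edgeR adjusted p = 1.9e-58).

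Fosb (ENSMUSG00000003545, chromosome 7, 19036621 to 19043976, - strand, 6243 exonic bases), which also gives rise to a shortened, stable protein by splicing, moved the other way. It had 1741 and 1743 CPM in libraries labelled Nat10-deficient, against 1480 and 1509 CPM in WT. The groups did not overlap, and the gap was small beside that of Fos. The log2 difference was 0.44 ± 0.023 (edgeR adjusted p = 2.9e-49).

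Jun (ENSMUSG00000052684, chromosome 4, 94937271 to 94940459, - strand, 1 exon of 3189 bases), the most studied Jun protein and a substrate of the kinase Jnk, was close to equal between genotypes. Its level was 1573 and 1612 CPM in libraries labelled Nat10-deficient, against 1558 and 1587 CPM in WT, so the groups overlapped in CPM. Under TMM scaling the log2 difference was 0.24 ± 0.023 (edgeR adjusted p = 1.4e-20), and scaled on long-lived mRNAs it was -0.10 (adjusted p = 6.9e-05), so its direction depends on the scale. The antisense gene Junos shares 232 of its exonic bases, and strand was not used in counting.

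Junb (ENSMUSG00000052837, chromosome 8, 85701113 to 85705347, - strand, 2301 exonic bases), a Jun protein that can restrain Jun, had 2113 and 2212 CPM in libraries labelled Nat10-deficient. In WT it had 3514 and 3639 CPM, well above both. The log2 difference was -0.50 ± 0.022 (edgeR adjusted p = 5.0e-60). It shares 173 bases with the abundant gene Prdx2 on the other strand, and fragments in that overlap belong to no gene in these counts.

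Jund (ENSMUSG00000071076, chromosome 8, 71151599 to 71153265, + strand, 1 exon of 1667 bases), in other cells the most constantly expressed Jun protein, was barely detected. Its counts were 126 and 130 in the libraries labelled Nat10-deficient, or 7.47 and 7.53 CPM, against 98 and 86 counts, or 7.32 and 7.07 CPM, in WT. The CPM lay side by side, and the log2 difference of 0.28 ± 0.20 did not pass (edgeR adjusted p = 0.23). An antisense gene, Gm11175, listed at 0 counts in every library, covers 877 of its bases, or 52.6%, and fragments there belong to no gene in these counts, so the level of Jund rests on the remaining bases.

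Markers of several cell types moved with genotype at 0 h, and their part in these differences was not tested. The 10 stem cell markers summed to 935 and 937 CPM in libraries labelled Nat10-deficient, against 2347 and 2382 CPM in WT, with 9 lower and 1 higher. All 5 eosinophil markers were higher in libraries labelled Nat10-deficient, summing to 1361 to 1375 CPM against 255 to 259 CPM in WT. Of 8 neutrophil and monocyte markers 6 were higher and none lower, at 10539 to 10625 CPM in libraries labelled Nat10-deficient and 6356 to 6426 CPM in WT. All 6 mast cell and basophil markers were higher, at no less than 382 CPM in libraries labelled Nat10-deficient and no more than 124 CPM in WT. All 10 plasma cell markers were higher, at 56531 to 56761 CPM against 32576 to 32707 CPM in WT, where the plasma cell gene Mzb1 had 0 counts in both libraries. The spike-ins give another scale again: per ERCC count the log2 difference at 0 h, libraries labelled Nat10-deficient minus WT, had a median of 6.24 over all genes, and every member had a positive value, with Fos at 4.64 and Junb at 5.64.

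During the first hour of actinomycin D all 6 mRNAs fell in both genotypes. Here libraries were scaled on ERCC counts, so a change is relative to the spike-in. On this scale long-lived reference mRNAs fell too. Gapdh changed by a log2 of -1.23 in libraries labelled Nat10-deficient and -1.11 in WT, and Cfl1 by -1.35 and -1.20. Shares left and half-lives on the ERCC scale include any such general fall. In the libraries labelled Nat10-deficient 73.4% of all genes were called, 68.6% fell and 4.80% rose, with a median log2 change of -1.33. In WT 71.7% were called and 55.7% fell, with a median of -0.83. The count of 6 of 6 is to be read against these shares, and the members are better described by how far they fell. The largest edgeR adjusted p was that of Jund in both genotypes, 9.3e-28 in libraries labelled Nat10-deficient and 5.4e-08 in WT. Among the genes that rose in WT were the plasma cell genes Jchain and Igkc, by 2.21 and 2.08 on the log2 scale. The basophil gene Mcpt8 rose there by 3.26 and the B cell gene Ms4a1 by 3.27. In libraries labelled Nat10-deficient Jchain and Igkc changed by -0.87 and -0.89, Mcpt8 by -0.02 and Ms4a1 by -1.15. What such rises mean for the genotype differences in this hour was not tested.

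Fosl2 and Junb lost the most in that hour. Fosl2 changed by a log2 of -3.96 ± 0.088 in the libraries labelled Nat10-deficient, with 6.29% and 6.57% of the 0 h mean left, and by -4.07 ± 0.082 in WT, with 5.94% and 5.98% left. Junb changed by -3.45 ± 0.037 with 9.10% and 9.18% left in libraries labelled Nat10-deficient, and by -3.48 ± 0.037 with 8.96% and 9.02% left in WT. On the ERCC scale the fall of neither gene differed between genotypes by edgeR's interaction test: the difference was 0.11 ± 0.13 for Fosl2 (adjusted p = 0.56) and 0.02 ± 0.048 for Junb (adjusted p = 0.80). Only 7.43% of genes in WT fell further than Fosl2 on that scale, and 8.77% further than Junb. Under TMM scaling Fosl2 changed by -2.61 in libraries labelled Nat10-deficient and by -3.12 in WT, and Junb by -2.10 and -2.53. Scaled on long-lived mRNAs the changes were -2.69 and -3.07 for Fosl2 and -2.18 and -2.48 for Junb. Relative to other genes, both thus fell less in libraries labelled Nat10-deficient.

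Fos fell less in the libraries labelled Nat10-deficient than in WT. Its log2 change was -2.51 ± 0.036 with 17.6% and 17.5% left in libraries labelled Nat10-deficient, against -3.16 ± 0.037 with 11.1% and 11.4% left in WT. The shares left did not overlap, and the interaction was 0.65 ± 0.049 (edgeR adjusted p = 1.3e-38). Read as a constant rate on the ERCC scale, the hour corresponds to a half-life of 23.9 min in libraries labelled Nat10-deficient and 19.0 min in WT. These times depend on the scale. Scaled on long-lived mRNAs they were 48.3 min in libraries labelled Nat10-deficient and 27.7 min in WT, and under TMM scaling 51.7 and 27.1 min.

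Jun and Fosb behaved alike and went the other way. Jun kept 23.6% and 23.6% in the libraries labelled Nat10-deficient, against 31.2% and 32.1% in WT. Fosb kept 22.9% and 23.2% in the libraries labelled Nat10-deficient, against 30.1% and 30.4% in WT. Both thus fell further in the libraries labelled Nat10-deficient, with interactions of -0.42 ± 0.048 for Jun (edgeR adjusted p = 2.8e-17) and -0.39 ± 0.048 for Fosb (edgeR adjusted p = 3.3e-15). The median interaction of all genes was -0.44, and 50.9% of genes were called (12.6% higher, 38.3% lower), so these 2 genes sat at the middle of all genes while Fos stood 1.08 above it. Under TMM scaling the interactions became -0.02 for Jun (adjusted p = 0.79) and 0.01 for Fosb (adjusted p = 0.94), and that of Fos stayed positive.

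Jund, with few counts, kept 18.7% and 16.9% in libraries labelled Nat10-deficient, against 35.3% and 45.7% in WT. The WT libraries were both higher and differed from each other more than any other pair at 1 h. Its interaction was -1.17 ± 0.33 (edgeR adjusted p = 0.0014). Under TMM scaling Jund changed by a log2 of -1.14 in libraries labelled Nat10-deficient and -0.38 in WT. Scaled on long-lived mRNAs the changes were -1.22 and -0.33.

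Over both genotypes the first-hour fall was -4.01 ± 0.060 for Fosl2, -3.46 ± 0.026 for Junb, -2.83 ± 0.026 for Fos, -1.92 ± 0.025 for Fosb, -1.90 ± 0.16 for Jund and -1.87 ± 0.025 for Jun. With the 2 files of each group summed, so that the genotypes and times themselves give the spread, 5 of the 6 still passed and Jund did not (edgeR adjusted p = 0.14), while 4176 genes passed in all, against 69.2% of genes with separate files (61.4% lower, 7.83% higher). The summed values ranged from -4.02 ± 0.44 for Fosl2 (adjusted p = 0.0032) to -1.91 ± 0.38 for Jun (adjusted p = 0.012). The first-hour fall of these 5 genes therefore does not rest on treating the 2 files of a group as separate samples.

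The falls were also set beside the AU-rich pentamers, whose part in them was not tested. Fosl2, which fell furthest of the 6, had the most pentamers, 8, at 1.72 per kilobase. Jun had the smallest mean fall of the 6, with 4 pentamers at 3.24 per kilobase. Fosb and Jund, with 1 pentamer each at 0.466 and 1.88 per kilobase, were also among the slowest. Across genes, the median first-hour log2 change in libraries labelled Nat10-deficient was -1.49 for the 1281 tested genes with TTATTTATT and -1.26 for the 5331 with no ATTTA, and in WT the medians were -1.05 and -0.95. For the 4727 genes with 4 or more ATTTA the median was -1.51 in libraries labelled Nat10-deficient, while in WT it was -0.95, the same as with no ATTTA. These medians describe genes, which are not independent replicates, and carry no test.

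**Figure D2:**
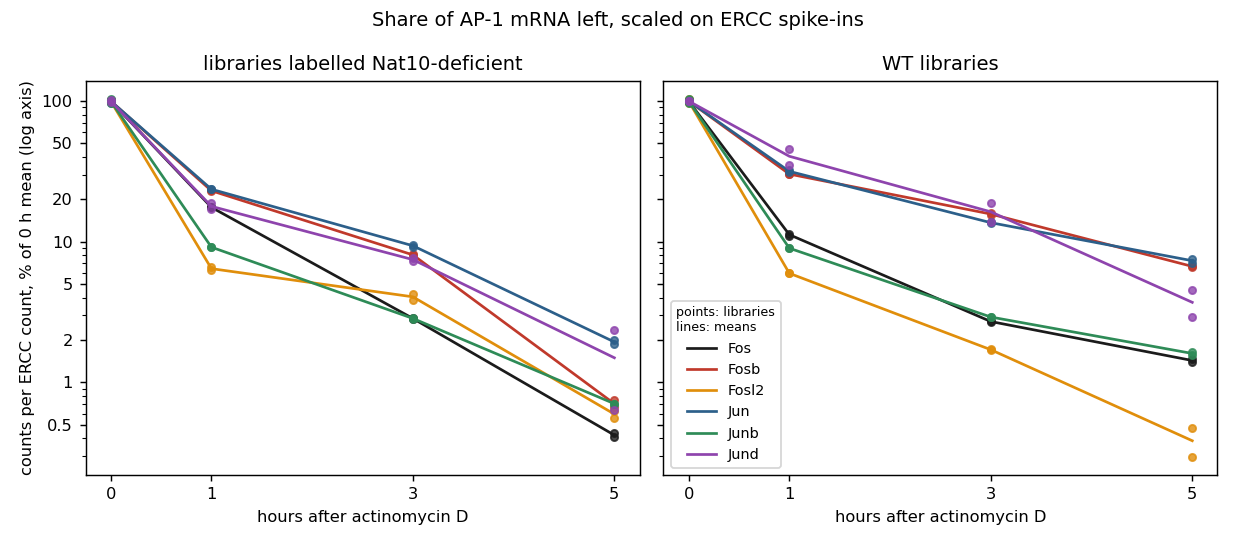
Counts per ERCC count as a percentage of the 0 h mean (log axis) against hours after actinomycin D, for libraries labelled Nat10-deficient on the left and WT on the right, with a point per library and lines through means. Fosl2 and Junb drop below 10% within 1 h in both panels, and between 3 and 5 h Fos, Fosb, Jun and Junb flatten in WT relative to the libraries labelled Nat10-deficient.

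From 1 to 3 h all 6 members fell again in both genotypes, when 63.9% of genes were called in libraries labelled Nat10-deficient (48.5% lower, 15.3% higher) and 68.4% in WT (38.1% lower, 30.3% higher). Fos fell by 2.63 ± 0.041 on the log2 scale in the libraries labelled Nat10-deficient and fell by 2.05 ± 0.041 in WT, so that 2.88% and 2.81% of its 0 h mean was left in the libraries labelled Nat10-deficient, against 2.71% and 2.70% in WT. The shares left had come close by 3 h, although those in libraries labelled Nat10-deficient were still the higher. Fosl2 went the opposite way: it fell by only 0.66 ± 0.13 in libraries labelled Nat10-deficient and by 1.80 ± 0.16 in WT, with 3.84% and 4.27% left in libraries labelled Nat10-deficient, against 1.70% and 1.72% in WT. Under TMM scaling the Fosl2 change in libraries labelled Nat10-deficient was -0.13 and did not pass (edgeR adjusted p = 0.39). The interaction test called 4 of 6 members for this interval, against 51.1% of all genes (17.9% higher, 33.2% lower): Fos and Fosb fell further in the libraries labelled Nat10-deficient and Fosl2 fell less. The Jun interaction of -0.12 lost its call when any of 5 single libraries was left out (edgeR adjusted p of 0.073 to 0.16) and was 0.16 under TMM scaling.

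Between 3 and 5 h the genotypes parted. All 6 members fell in both, where 67.8% of genes were called in libraries labelled Nat10-deficient (56.6% lower, 11.2% higher) and 71.7% in WT (63.8% lower, 7.88% higher). Fosb fell by 3.52 ± 0.044 on the log2 scale in libraries labelled Nat10-deficient, reaching 0.66% and 0.74% of its 0 h mean, and by 1.24 ± 0.043 in WT, reaching 6.72% and 6.62%. Fos reached 0.41% and 0.44% in libraries labelled Nat10-deficient, against 1.40% and 1.46% in WT. Jun reached 1.87% and 2.0% in libraries labelled Nat10-deficient, against 7.08% and 7.56% in WT. Scaled on long-lived mRNAs, Fos, Fosb and Jun ended at 1.64%, 2.73% and 7.52% in libraries labelled Nat10-deficient. In WT they ended at 3.59%, 16.8% and 18.4% on that scale.

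Junb ended at 0.70% and 0.71% in the libraries labelled Nat10-deficient, against 1.55% and 1.66% in WT, again without overlap. Fosl2 ended at 0.63% and 0.56% in libraries labelled Nat10-deficient, against 0.47% and 0.30% in WT. Its interaction for this interval did not pass (-0.68 ± 0.40, edgeR adjusted p = 0.14), nor did that of Jund, which had between 4 and 15 counts per library at 5 h. Fos, Fosb, Jun and Junb passed, 4 of 6 members against 54.8% of all genes (33.1% higher, 21.7% lower), with the WT fall the smaller in each. Their interactions lay between -2.28 and -1.15, whereas the median of all genes was 0.31.

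The small WT falls from 3 to 5 h depended on the scale. Relative to the spike-in Fos, Jun and Junb fell in WT by 0.92, 0.90 and 0.86 on the log2 scale, and under TMM scaling, relative to other genes, they had log2 changes of 0.10, 0.12 and 0.16. Over the same times immunoglobulin genes held 49.3% to 49.6% of WT gene counts at 3 h and 59.2% to 59.7% at 5 h, and 24.4% to 24.6% and 3.89% to 3.92% in libraries labelled Nat10-deficient. At 5 h all 10 plasma cell markers and 8 of 10 stem cell markers were lower in libraries labelled Nat10-deficient than in WT under TMM scaling. In CPM, whose total includes immunoglobulin genes, summed B cell markers were lower too. The CPM sums of all other marker lists were higher in libraries labelled Nat10-deficient. Whether those sums keep their direction without immunoglobulin genes in the total was not examined. Erythroid markers summed to 14716 to 14812 CPM there, against 1658 to 1668 CPM in WT, and eosinophil markers to 5747 to 5766 CPM, against 1650 to 1678 CPM. The part of these markers in the result was not tested.

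Count ratios of 2 members within a library need no scaling between libraries. Fos over Jun was 0.918 and 0.905 at 0 h in libraries labelled Nat10-deficient, against 3.09 and 3.01 in WT. At 1 h it was 0.679 and 0.677 against 1.08 and 1.08 in WT, and at 3 h 0.276 and 0.278 against 0.598 and 0.612 in WT. By 5 h it was 0.198 and 0.199 in libraries labelled Nat10-deficient, against 0.605 and 0.588 in WT. The ratio was below WT in both libraries at all 4 times. It fell between each pair of times in libraries labelled Nat10-deficient and levelled off in WT after 3 h.

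Fosb over Jun stayed near 1 at 0, 1 and 3 h in both genotypes, between 0.934 and 1.11 in libraries labelled Nat10-deficient and between 0.900 and 1.13 in WT. The genotypes did not overlap at any time: libraries labelled Nat10-deficient lay above WT at 0 and 1 h and below WT at 3 and 5 h. The gap was widest at 5 h, at 0.389 and 0.406 in libraries labelled Nat10-deficient, against 0.902 and 0.832 in WT. Junb over Jun began at 1.34 and 1.37 in libraries labelled Nat10-deficient, against 2.26 and 2.29 in WT, and at 5 h the groups overlapped at 0.510 and 0.479 against 0.499 and 0.498 in WT. Fosl2 over Jun was below WT at 0 and 1 h and above WT at 3 and 5 h in the libraries labelled Nat10-deficient, where it was 0.017 and 0.014 at the end, against 0.0094 and 0.0055 in WT.

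**Figure D3:**
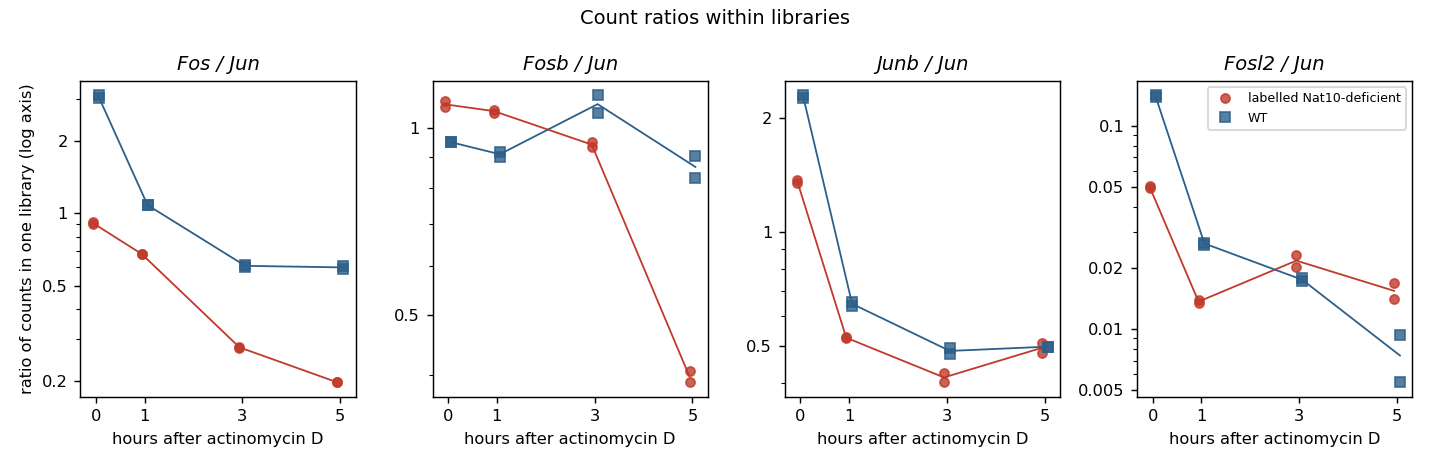
Ratio of the counts of 2 genes within each library (log axes) against hours after actinomycin D, with a point per library and lines through means of 2. Fos over Jun runs below WT at every time in the libraries labelled Nat10-deficient, while Fosb over Jun shows its widest gap at 5 h, at 0.389 and 0.406 against 0.902 and 0.832 in WT.

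The genotypes were also compared at each later time under TMM scaling. At 1 h 5 members were called, against 64.2% of genes (32.4% higher, 31.8% lower): Fos at -0.45 ± 0.024, Fosl2 at -0.73 ± 0.11 and Junb at -0.07 ± 0.026 were lower in libraries labelled Nat10-deficient, and Fosb at 0.45 ± 0.024 and Jun at 0.22 ± 0.024 were higher, except when scaled on long-lived mRNAs (-0.011 and -0.24). The Junb call was lost when any of 4 single libraries was left out, with values of -0.06 to -0.03 and adjusted p of 0.091 to 0.24. At 3 h 5 members were called, against 67.4% of genes (30.4% higher, 37.0% lower), with Fos lower at -0.75 ± 0.037 and Fosb (0.16), Fosl2 (0.69), Jun (0.38) and Junb (0.15) higher. Scaling on long-lived mRNAs turned Fosb, Jun and Junb at 3 h to -0.49, -0.27 and -0.51, and DESeq2 gave -0.09 for Fosb and -0.10 for Junb.

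At 5 h 4 members were called and all were lower in libraries with that label under TMM scaling, though not relative to the spike-in nor, for Jun and Junb, in CPM, against 64.2% of genes called, 34.2% higher and 30.1% lower. Fos had 34.2 and 35.0 CPM in libraries labelled Nat10-deficient, against 94.7 and 97.8 CPM in WT, a log2 difference of -2.77 ± 0.048 (edgeR adjusted p = 7.1e-139). Fosb had 67.0 and 71.5 CPM in libraries labelled Nat10-deficient, against 141 and 138 CPM in WT, a difference of -2.30 ± 0.040 (edgeR adjusted p = 1.3e-137). For these 2 genes the low libraries were those labelled Nat10-deficient on every scale but the spike-in.

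Jun and Junb at 5 h show how much the scale matters. Jun had 172 and 176 CPM in libraries labelled Nat10-deficient, against 157 and 166 CPM in WT, slightly higher, yet its TMM log2 difference was -1.18 ± 0.034. Junb had 88.0 and 84.4 CPM in libraries labelled Nat10-deficient, against 78.1 and 82.9 CPM in WT, with a TMM difference of -1.19 ± 0.044. When immunoglobulin genes were left out of the total, the log2 ratio of mean CPM was -1.13 for Jun and -1.15 for Junb. Fosl2 had 2.90 and 2.47 CPM against 1.47 and 0.91 CPM in WT, and its TMM difference of -0.15 ± 0.32 did not pass (edgeR adjusted p = 0.72).

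**Figure D4:**
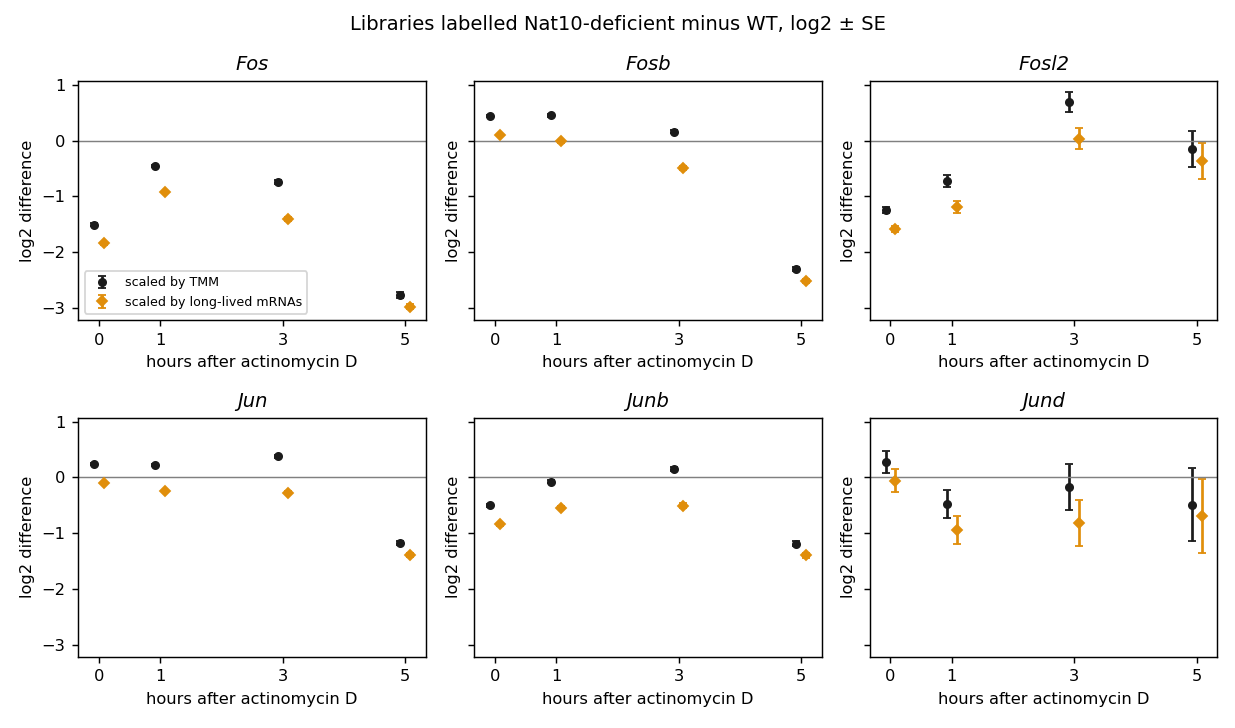
Log2 difference, libraries labelled Nat10-deficient minus WT, with its SE at 0, 1, 3 and 5 h for each gene, under TMM scaling (circles) and scaling on long-lived mRNAs (diamonds). Fos lies below 0 at all 4 times under both scalings, whereas Jun lies at 0.24, 0.22 and 0.38 under TMM up to 3 h and below 0 when scaled on long-lived mRNAs.

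Averaged over the 4 times, 5 members were called and all 5 were lower in libraries labelled Nat10-deficient under TMM scaling, though none relative to the spike-in and Jun not without immunoglobulin genes (0.060), against 53.2% of genes called, 31.6% higher and 21.6% lower. The values were -1.37 ± 0.017 for Fos, -0.41 ± 0.017 for Junb, -0.36 ± 0.10 for Fosl2, -0.31 ± 0.015 for Fosb and -0.08 ± 0.014 for Jun. Fosl2 did not pass without WT 5 h replicate 1 (-0.19, edgeR adjusted p = 0.34), nor did Jun without WT 5 h replicate 2 (-0.02, edgeR adjusted p = 0.35). Summing the 2 files of a group left edgeR with none of the 6 called, with Fos at -1.34 ± 0.36 (adjusted p = 0.11), and with 17 genes called in all, while 3465 had an unadjusted p under 0.05. In a comparison added after the data were seen, the mean without 5 h gave -0.90 for Fos, 0.35 for Fosb and 0.28 for Jun, so the lower means of Fosb and Jun rest on the 5 h libraries.

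Genes around AP-1 were read from lists, and the counts of every list are to be read against the shares of all genes. At 0 h 36.0% of all genes were higher and 24.2% lower in libraries labelled Nat10-deficient. In the first hour 68.6% fell in libraries labelled Nat10-deficient and 55.7% in WT. Of 20 partners and relatives of the bZIP family, 6 were higher and 8 lower at 0 h in libraries labelled Nat10-deficient (median -0.17, against 0.10 for all genes). Atf7, a partner of Jun, was lower at -0.88 ± 0.077, as was Nfe2, a factor of erythroid cells and megakaryocytes, at -0.49 ± 0.044, and Nfe2l2, the regulator of the antioxidant response, was higher at 0.38 ± 0.038. Of these 20, 18 fell in the first hour in each genotype, and Atf3, a stress-induced dimer partner, changed by -4.06 ± 0.050 in libraries labelled Nat10-deficient and by -3.59 ± 0.052 in WT. Fosl1, the remaining Fos gene and one of the 20, stood at 0.14 to 1.43 CPM in libraries labelled Nat10-deficient and at 0 to 1.72 CPM in WT.

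Among 21 kinases and phosphatases that act on AP-1, 7 were higher and 8 lower at 0 h (median -0.06). Map2k3, a kinase upstream of p38, was higher at 0.98 ± 0.032. The Erk phosphatase genes Dusp6 and Dusp5 went in opposite directions, at 1.06 ± 0.053 and -1.50 ± 0.066. All 21 fell in the first hour in both genotypes, with Dusp2 at -5.23 ± 0.064 in libraries labelled Nat10-deficient and -3.56 ± 0.059 in WT.

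Transcription factors that act at the Fos and Jun promoters were lower in 9 of 16 cases and higher in 3 (median -0.20). Srf, which binds the serum response element of Fos, was lower at -0.66 ± 0.12, as was the cytokine-activated Stat5b at -0.39 ± 0.064, and the gene of the Srf coactivator, Mrtfa, was higher at 0.54 ± 0.088. Of 10 AU-rich element binding proteins 3 were higher and 4 lower. Zfp36, which promotes the decay of its targets, was lower at -1.06 ± 0.023, while Elavl1, which stabilises many such mRNAs, and Khsrp, which promotes decay, were higher at 0.56 ± 0.031 and 0.64 ± 0.076. Zfp36 mRNA fell in the first hour by 3.00 ± 0.037 on the log2 scale in libraries labelled Nat10-deficient and fell by 3.37 ± 0.038 in WT. Of 8 genes for the turnover of AP-1 proteins 5 were higher and 2 lower (median 0.34), with Trib1, a scaffold of the Cop1 ubiquitin ligase, lower at -0.50 ± 0.038 and Fbxw7, a ubiquitin ligase subunit that targets Jun, higher at 0.57 ± 0.12.

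Of 15 AP-1 target genes known from other cells, 14 were tested. At 0 h 11 were higher and 2 lower in libraries labelled Nat10-deficient (median 0.74), with Vim, an intermediate filament gene, at 1.34 ± 0.046, the lamin gene Lmna at 1.34 ± 0.032 and Cd44, a hyaluronan receptor gene, at 1.04 ± 0.035. At 5 h 3 were higher and 7 lower, where 34.2% of all genes were higher and 30.1% lower. Immediate-early genes outside the family were lower in 18 of 23 cases at 0 h and higher in 5 (median -0.97), as Fos and Junb were. Nr4a1 was at -1.99 ± 0.026, Egr1 at -1.22 ± 0.020 and Ccn1 at -3.44 ± 0.047. All 23 fell in the first hour in both genotypes, with medians of -2.68 in libraries labelled Nat10-deficient and -2.61 in WT.

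Over the 8 group means of TMM-scaled log2 CPM the 15 pairs of members correlated with Pearson's r of 0.80 (Fosb and Fosl2) to 0.97 (Fosb and Jun), as descriptions of points that share the times of a fall. Among 6210 genes with a mean log2 CPM of at least 4, those most like Fos were Nfkbid, Btg2 and Csrnp1 (r of 0.99 each), those most like Junb were Irf1, Ccnl1 and Egr1 (r of 0.997, 0.996 and 0.993), and those most like Fosl2 were Ccnt1, Ier2 and Egr1 (r of 0.98 to 0.99). Fosb was closest to Slc39a13, Id1 and Flcn (r of 0.98 each), Jun to Kmt2d, Nrros and Arl4a (r of 0.99 each) and Jund to Tgfbr2, Nsd1 and Vezf1 (r of 0.99 each).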

How the data were processed

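RNA of 16 libraries was sequenced from Smart-seq II preparations, per the labels. The deposited values are whole fragment counts per gene, made by the authors with featureCounts 1.6.3 without regard to strand and for read pairs with both ends aligned, per the file headers. STAR, DESeq2 and the build GRCm39 are listed in the submitters' processing notes. The exonic length that the deposited tables give, another kind of value, was used for CPM per kilobase and positions. Groups came from the labels. The 6 members and all gene lists were chosen with earlier results of these data known.

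CPM are counts scaled to a fixed total of gene counts, without spike-ins. Genes passing filterByExpr (minimum count 10) numbered 25081. Fits used edgeR 4.0.16 in R 4.3.3 (quasi-likelihood F test, a mean per group, all 16 libraries, Benjamini-Hochberg over all genes, threshold 0.05), with TMM scaling between genotypes and ERCC scaling between times. Each SE was taken as the size of the log2 value divided by root F, and n = 2 files per group. The fit was tested on simulated data with 18993 genes for the genotype difference at 0 h. It recovered 24 of 36 genes set at a log2 of -1, 21 of 46 at 0.5, 20 of 40 at 1 and 38 of 47 at 2. There were 2 false calls. Unchanged genes had the same mean in every group there, unlike in these data. Some genes are named by the 3 smallest p per list at 0 h and in the WT first hour, ties in list order; Dusp1, Srf and Zfp36 stand in more than 1 list. Likeness left out clone, predicted-gene and pseudogene names. Gene symbols matched 52081 identifiers (94.0%). Sequences are from GENCODE M21 and RefSeq, builds GRCm38 and GRCm38.p6, and no coordinates were converted. Alternatives included DESeq2 1.42.0, no filter, other scalings, no immunoglobulin genes, each library left out and a replicate block. Intervals between files cover counting and file spread only, since reads carry no molecular identifiers.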

Additional observations from a re-analysis of the deposited data

Results flagged for a closer look

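The change between times differed between genotypes by edgeR's interaction test, with ERCC scaling, for 4 members in each interval, where a positive value means a smaller fall in the libraries labelled Nat10-deficient. From 0 to 1 h the values were 0.65 for Fos, -0.39 for Fosb, -0.42 for Jun and -1.17 for Jund. From 1 to 3 h they were -0.57 for Fos, -0.57 for Fosb, 1.14 for Fosl2 and -0.12 for Jun. From 3 to 5 h they were -1.83 for Fos, -2.28 for Fosb, -1.37 for Jun and -1.15 for Junb. Of all genes, 50.9%, 51.1% and 54.8% were called in these intervals, with medians of -0.44, -0.28 and 0.31. The 1 to 3 h value of Jun lost its call when any of 5 single libraries was left out (adjusted p of 0.073 to 0.16) and was 0.16 under TMM scaling.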

How the results depend on the processing

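Values are log2, libraries labelled Nat10-deficient minus WT unless said otherwise. Summing the files of a group left 0 members called over the mean of the 4 times. ERCC scaling turned these differences positive: at 0 h Fos 4.64, Fosl2 4.90 and Junb 5.64; at 1 h Fos 5.28, Fosl2 5.01, Junb 5.66 and Jund 5.25; at 3 h Fos 4.71 and Jund 5.27; at 5 h Fos 2.88, Fosb 3.34, Fosl2 5.47, Jun 4.46, Junb 4.45 and Jund 5.07. For the mean of the times it gave Fos 4.38, Fosb 5.43, Fosl2 5.38, Jun 5.66, Junb 5.34 and Jund 5.50. The all-gene median under ERCC scaling was 6.24, 5.64, 5.19 and 5.62 at the 4 times and 5.54 for their mean. Scaling on 26 long-lived mRNAs gave Jun -0.10 and Jund -0.057 at 0 h, Fosb -0.011 and Jun -0.24 at 1 h, and Fosb -0.49, Jun -0.27 and Junb -0.51 at 3 h. Under it the interaction of Junb from 1 to 3 h was 0.034 and that of Jund from 3 to 5 h was 0.13. DESeq2 gave Fosb -0.086 and Junb -0.10 at 3 h. Without immunoglobulin genes Junb at 1 h was 0.0063, Fosl2 at 5 h was 0.25 and Jun over the mean was 0.060. TMM in place of ERCC scaling gave 0.10, 0.12 and 0.16 for Fos, Jun and Junb in WT from 3 to 5 h, and interactions of 0.011 for Fosb from 0 to 1 h and of 0.16 for Jun and 0.22 for Junb from 1 to 3 h. The mean without 5 h, chosen after seeing the data, gave Fosb 0.35 and Jun 0.28.

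With each library left out in turn, 1417 values kept their direction and side of the threshold, 12 changed sign and 11 lost the call. The values that changed sign gave ranges for Jund at 3 h (-0.37 to 0.11), Fosl2 at 5 h (-0.25 to 0.47), Jund at 5 h (-1.66 to 0.14) and the interactions of Junb from 0 to 1 h (-0.025 to 0.076), Jund from 1 to 3 h (-0.18 to 0.26) and Jund from 3 to 5 h (-1.43 to 0.45). Over the mean of the times, Fosl2 was -0.19 without WT 5 h replicate 1 (adjusted p = 0.34) and Jun was -0.02 without WT 5 h replicate 2 (adjusted p = 0.35), and neither passed. The cause of these changes was not tested. Numbers did not pair samples, with correlations of deviations between -0.0133 and 0.0187 over 28 pairs. A replicate block changed the call of none of 90 values, and Fos at 0 h was -1.50 with it. Few counts limit Jund at every time and Fosl2 at 5 h.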
